A study of Mus musculus with 18 samples.

Results

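The 35 genes described here are interferon-stimulated genes, which are transcribed when a cell senses interferon. They were taken by gene symbol from a list of 35 names, and all 35 were found among the 56691 genes of the deposited table of mouse liver RNA sequencing. The table holds 18 libraries in 3 groups of 6. Every group was liver tissue of wild-type C57BL/6 mice. Sham mice were anaesthetised and had a laparotomy without clamping. IR mice had 1 h of ischemia in the median and left lobes, about 70% of the liver, after the portal triad was clipped, and then 6 h of reperfusion. IR-Ori mice had the same ischemia and reperfusion and received oridonin, a plant diterpenoid. The dose, route and time of oridonin, the sex and age of the mice and the lobe sampled are not stated in the labels. There was no group that received oridonin without ischemia. The labels do not say that each library came from a separate mouse, so the p-values below measure the spread between these libraries.

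Type I and type III interferons bind receptors that activate the kinases Jak1 and Tyk2. These lead to a complex that holds Stat2 and Irf9 and binds a DNA element named the interferon-stimulated response element. Interferon gamma signals through Jak1 and Jak2 to genes with a DNA element named the gamma-activated site. The induced genes encode sensors of foreign RNA, enzymes that degrade or modify viral RNA and proteins, the ubiquitin-like modifier Isg15 and its machinery, and antigen presentation proteins. In the liver, hepatocytes, Kupffer cells, endothelial cells and infiltrating leukocytes can all respond. In bulk tissue, fewer cells of a type and less RNA per cell cannot be told apart.

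Of the 35 genes, Oasl1, Oas3 and Rsad2 rose in IR against sham, 3 of 35 (8.57%) beside 5.52% of all 14595 genes tested. The other 32, among them Isg15, all 4 Ifit genes, both Mx genes, Irf7 and Stat2, did not pass the test. No member passed the test in IR-Ori against IR or in IR-Ori against sham. Over all genes tested, 0.596% were higher and 3.01% lower in the first of these comparisons, and 0.0% passed in the second. A single oridonin library, IR-Ori 3, held the highest level of its group for 22 of the 35 genes (62.9%), beside 10.4% of all genes tested.

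The promoters are shown first because 16 of the 27 genes with a promoter window share a sequence element there, and 2 of those 16 rose. RefSeq promoter windows of 300 bases, 250 before and 50 after the annotated start on build GRCm38.p6, were matched by symbol for 27 of the 35 genes. Usp18, Oas2, Mx1, Mx2, Ifi27, Parp9, Parp14 and Dhx58 were not matched. Both strands were searched for GAAANNGAA, the core of the response element, and for TTCNNNGAA, the gamma-activated site, whose letters can overlap those of the core. The core was found in 16 of the 27 members (59.3%) and in 2638 of the 27025 genes of the promoter table (9.76%). The gamma-activated site was found in 7 members (25.9%), namely Bst2, Gbp7, Ifi35, Ifit2, Irf1, Irf8 and Oas1a, and in 9.55% of all genes. A match is a description of letters in this window. The 5 promoters below are printed 5′ to 3′ on the strand of the gene, ending at the base before the start, with the core matches on either strand in capitals. Oas3 (chr5:120777660-120777909, minus strand), Rsad2 (chr12:26456453-26456702, minus strand) and Oasl1 (chr5:114922990-114923239, plus strand) are the genes that rose. Isg15 (chr4:156200819-156201068, minus strand) and Ifit3 (chr19:34583279-34583528, plus strand) are textbook interferon targets that did not pass the test here.
Oas3: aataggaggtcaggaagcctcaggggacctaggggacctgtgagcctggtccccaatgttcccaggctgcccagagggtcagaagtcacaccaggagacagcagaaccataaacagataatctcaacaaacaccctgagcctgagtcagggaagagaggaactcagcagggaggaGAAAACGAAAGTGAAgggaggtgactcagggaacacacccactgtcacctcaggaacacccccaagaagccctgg
Rsad2: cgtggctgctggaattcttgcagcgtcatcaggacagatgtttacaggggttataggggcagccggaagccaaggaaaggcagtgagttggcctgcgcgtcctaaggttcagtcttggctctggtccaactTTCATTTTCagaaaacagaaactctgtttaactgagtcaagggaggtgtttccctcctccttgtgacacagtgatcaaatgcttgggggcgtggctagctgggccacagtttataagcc
Oasl1: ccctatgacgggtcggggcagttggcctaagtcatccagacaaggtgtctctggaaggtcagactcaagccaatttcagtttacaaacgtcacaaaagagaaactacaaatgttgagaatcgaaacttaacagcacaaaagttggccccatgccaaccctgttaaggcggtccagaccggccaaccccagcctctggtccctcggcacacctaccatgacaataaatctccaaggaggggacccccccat
Isg15: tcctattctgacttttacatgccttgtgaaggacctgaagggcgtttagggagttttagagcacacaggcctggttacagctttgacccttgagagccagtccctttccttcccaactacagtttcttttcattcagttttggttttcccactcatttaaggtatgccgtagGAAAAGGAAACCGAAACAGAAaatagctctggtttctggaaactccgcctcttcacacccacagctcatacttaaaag
Ifit3: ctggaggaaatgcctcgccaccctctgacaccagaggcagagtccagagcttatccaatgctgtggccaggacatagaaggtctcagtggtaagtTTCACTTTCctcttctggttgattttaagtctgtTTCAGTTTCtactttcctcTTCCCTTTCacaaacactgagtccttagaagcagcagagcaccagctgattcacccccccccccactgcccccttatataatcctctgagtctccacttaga
Oas3 held 2 overlapping cores that begin 75 and 69 bases before the start, and Rsad2 held 1 that begins 119 bases before it. Oasl1 held no match in the printed window. Isg15 held 3 overlapping cores between 78 and 66 bases before the start, and Ifit3 held 3 between 155 and 102 bases before it. Of the 3 genes that rose, 2 therefore held the core, and 14 members that did not pass the test held it too.

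Levels are given as FPKM, fragments per kilobase of exon scaled to the library total, computed by the authors. In sham liver the most abundant members per length were Bst2, a membrane protein that tethers viral particles (median 81.2 FPKM), Stat2 (32.3 FPKM) and Ifi27 (30.2 FPKM). Oas3 was the least abundant, with a sham median of 0.065 FPKM and 5 to 14 counts per library. Total counts ran from 12449529 to 19798188 per library. The share of counts on mitochondrially encoded genes ran from 6.52% to 42.9%, and since the FPKM total includes those counts, the FPKM of a nuclear gene falls where that share rises. Tests used counts in edgeR's quasi-likelihood model with trimmed-mean scaling and Benjamini-Hochberg adjustment over the 14595 genes that passed the low-count filter. All 35 members passed it. A gene is called changed at an adjusted p under 0.05.

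**Figure D1:**
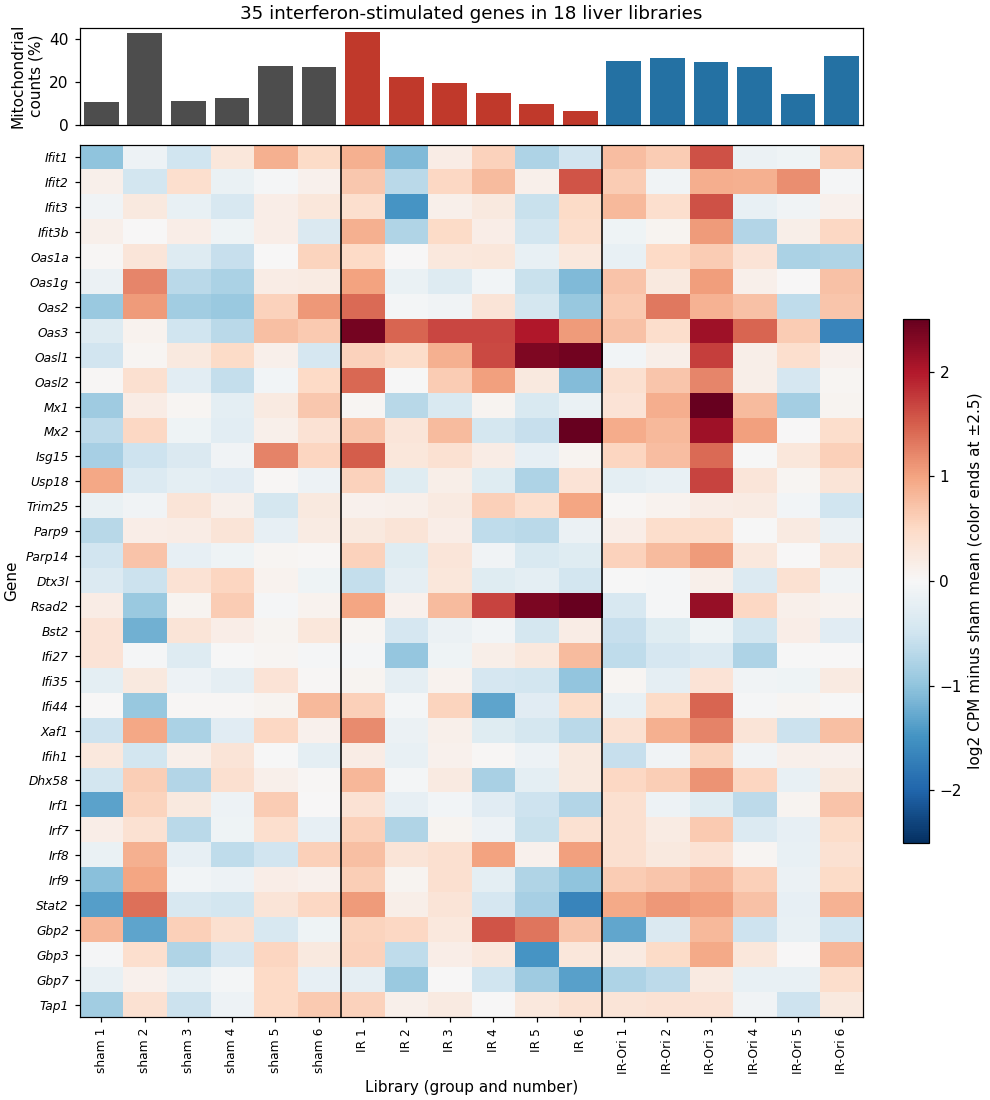
Each row is a gene and each column a library, colored by log2 CPM minus the mean of the 6 sham libraries, with the mitochondrial share of each library as bars above. The IR-Ori 3 column is red for most genes, with a median difference of 0.95 over the 35 genes, and Oasl1 and Rsad2 are darkest in IR 5 and IR 6.

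The 2',5'-oligoadenylate synthetase family and the Mx proteins come first. The Oas enzymes make 2',5'-linked oligoadenylates on double-stranded RNA, which activate RNase L. Oasl1 lacks that activity and is known as a brake on the translation of Irf7. Oasl1 (ENSMUSG00000041827, GRCm39 chr5:115061299-115075974) had 1.26, 1.95 and 2.64 FPKM as the lowest, median and highest of 6 sham libraries, 2.25, 5.11 and 12.0 FPKM in IR, and 1.95, 1.99 and 5.96 FPKM in IR-Ori. IR 4, IR 5 and IR 6 were highest, IR 1 alone overlapped the sham range in FPKM, and IR-Ori 3 stood apart from the other IR-Ori libraries. In log2 CPM minus the sham mean, IR 1 (0.59) lay above the highest sham library, sham 4 (0.49), and IR 2 (0.45) lay below it. Oasl1 was 3.0-fold higher in IR than in sham (log2 1.59 ± 0.38 SE, n = 6 per group, edgeR adjusted p = 0.0154). In IR-Ori against IR its log2 difference was -1.05 ± 0.37 with an edgeR adjusted p of 0.108.

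Oas3 (ENSMUSG00000032661, GRCm39 chr5:120891163-120915726) makes the oligoadenylates that activate RNase L. Its levels were 0.04, 0.065 and 0.14 FPKM in sham, 0.16, 0.30 and 0.45 FPKM in IR, and 0.01, 0.14 and 0.37 FPKM in IR-Ori. All 6 IR libraries stood above all 6 sham libraries, and the IR-Ori libraries spanned both. This was the only member whose IR and sham levels did not overlap, where 2.04% of all genes tested were higher without overlap. Oas3 was 3.66-fold higher in IR than in sham (log2 1.87 ± 0.50, edgeR adjusted p = 0.0279). In IR-Ori against IR the log2 difference was -0.82 ± 0.48 (edgeR adjusted p = 0.294).

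The other members of this family did not pass in IR against sham. Oas1a, Oas1g, Oas2, Oasl2, Mx1 and Mx2 had log2 differences from -0.32 ± 0.44 for Mx1 to 0.92 ± 0.45 for Mx2. Oas1a and Oas1g are near-identical copies whose reads can be split, so their values are uncertain. Mx1, an antiviral GTPase whose allele in C57BL/6 is defective, had 0.37, 0.81 and 1.12 FPKM in sham, 0.50, 0.615 and 0.86 FPKM in IR, and 0.40, 1.19 and 4.41 FPKM in IR-Ori. Its highest value was IR-Ori 3, the next in that group was 1.37 FPKM, and all 3 groups overlapped. Mx1 differed by a log2 of 1.34 ± 0.44 in IR-Ori against IR with an edgeR adjusted p of 0.085. DESeq2 gave an adjusted p of 0.0325 for it, and without IR-Ori 5 the edgeR adjusted p was 0.0363 with a log2 difference of 1.54. Without IR-Ori 3 the log2 difference was 0.66 (edgeR adjusted p = 0.262).

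Among the other effectors, Rsad2 rose. It encodes viperin, a radical SAM enzyme that makes a chain-terminating nucleotide against viral polymerases. Rsad2 (ENSMUSG00000020641, GRCm39 chr12:26492745-26506451) had 0.43, 0.935 and 1.40 FPKM in sham, 1.08, 2.43 and 7.43 FPKM in IR, and 0.75, 0.96 and 3.93 FPKM in IR-Ori. IR 4, IR 5 and IR 6 were highest, IR 2 overlapped sham, and IR-Ori 3 again stood apart from its group. Rsad2 was 3.54-fold higher in IR than in sham (log2 1.82 ± 0.50, edgeR adjusted p = 0.0299). In IR-Ori against IR its log2 difference was -1.16 ± 0.49 (edgeR adjusted p = 0.155). Bst2, Ifi27, Ifi35, Ifi44 and Xaf1 had log2 differences from -0.30 to 0.09 in IR against sham, and none passed.

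**Figure D2:**
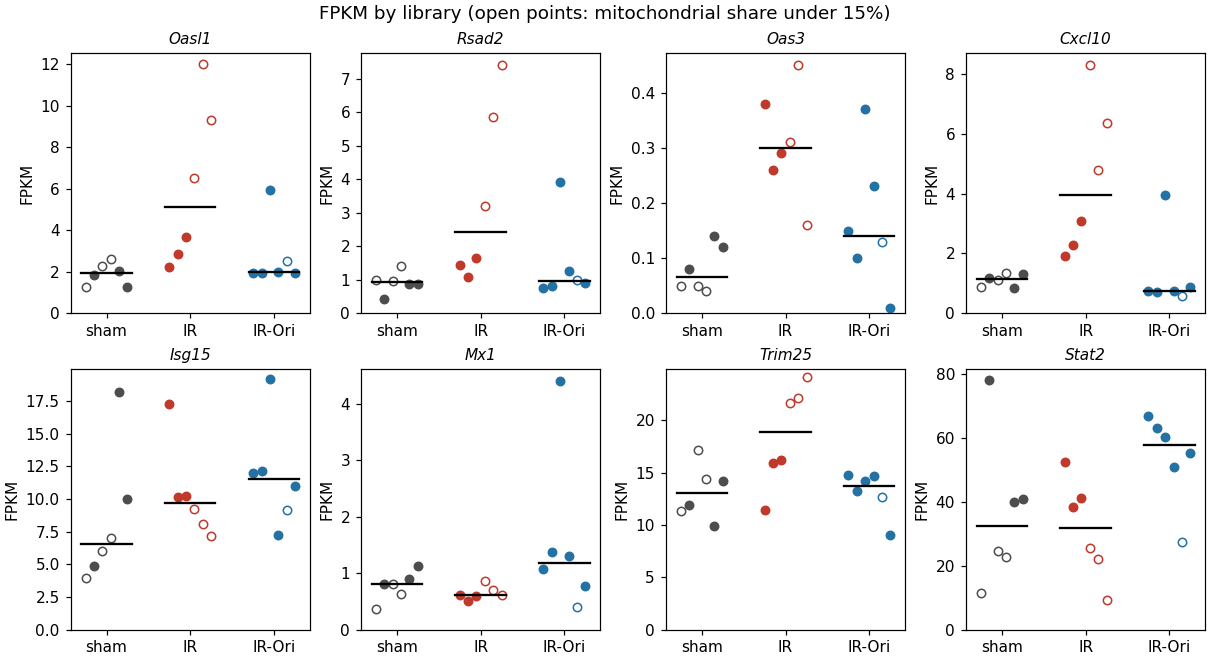
FPKM of 8 genes in each of 6 libraries per group, in order of library number, with the group median as a bar and libraries under 15% mitochondrial counts as open points. Oasl1, Rsad2, Trim25 and Cxcl10 are highest in the open IR points, IR 4 to IR 6, whereas the open points are the lowest of Stat2 in IR and IR-Ori.

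These 3 genes set the count of members called in IR against sham: 3 of 35 were higher and 0 lower, where 5.52% of all 14595 genes tested were higher and 2.36% lower. At an unadjusted p under 0.05 there were 6 members, beside 23.5% of all genes. The median log2 difference of the 35 members was -0.01, from -0.19 without IR 1 to 0.10 without sham 2, and that of all genes tested was 0.00. Of the 32 members not called, 22 had a 95% interval within a doubling in either direction. The intervals of the other 10 reached past a doubling in 1 direction. The comparison was also made within libraries of like mitochondrial share. Among libraries with a share under 15% (sham 1, 3 and 4 and IR 4, 5 and 6), the log2 differences were 2.05 for Oasl1, 2.47 for Oas3 and 2.21 for Rsad2, and all 3 passed in edgeR. Among the other 3 sham and 3 IR libraries they were 0.72, 1.46 and 0.90, and edgeR called none of the 3, where it called 14 genes higher and 0 lower in all. With the share as a covariate in edgeR, all 3 passed, at log2 differences of 1.40, 1.95 and 1.61. Oasl1 stayed under the threshold without each of the 18 libraries in turn (highest edgeR adjusted p 0.0464). The Oas3 call was lost when sham 1, 3 or 4 or IR 4 or 5 was left out (edgeR adjusted p from 0.0562 to 0.0639). The Rsad2 call was lost when sham 1, 2, 3, 5 or 6 or IR 4, 5 or 6 was left out (edgeR adjusted p from 0.0517 to 0.0866). Limma on log2(FPKM + 1) called Oasl1 (adjusted p = 0.0365) and not Rsad2 (adjusted p = 0.0688), and Oas3 did not reach its FPKM filter.

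**Figure D3:**
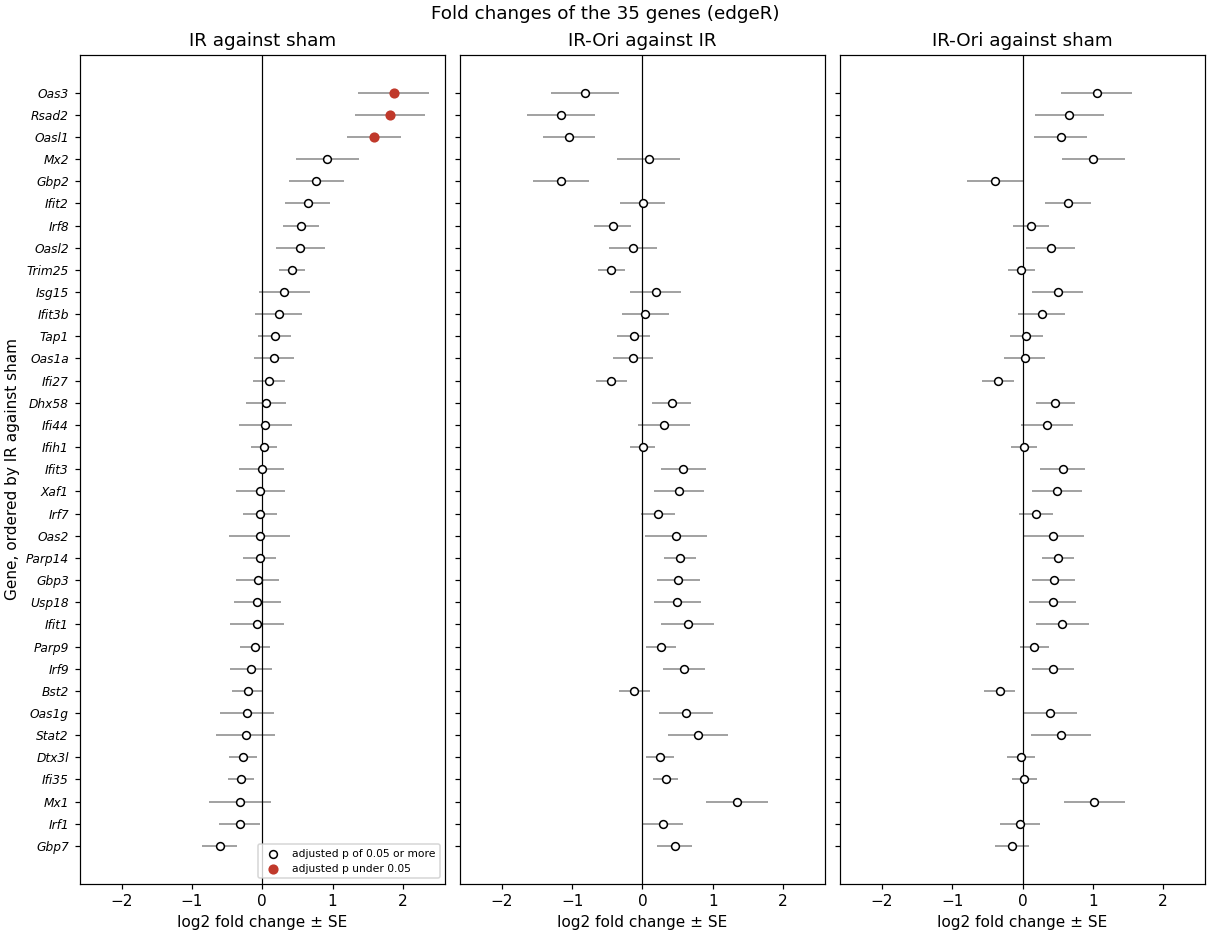
Log2 fold changes with standard errors of the 35 genes in each comparison, in edgeR, ordered by IR against sham. Only Oas3, Rsad2 and Oasl1, filled in the first panel, had an adjusted p under 0.05, with log2 values from 1.59 to 1.87.

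The Ifit proteins bind foreign 5′ ends of RNA and block its translation. Ifit2 had the smallest p of the 4, with 0.46, 0.67 and 0.95 FPKM in sham, 0.46, 0.985 and 1.9 FPKM in IR, and 0.60, 1.20 and 1.56 FPKM in IR-Ori. The 3 groups overlapped, and the log2 difference was 0.65 ± 0.32 in IR against sham (edgeR adjusted p = 0.232). Ifit1 differed by -0.07 ± 0.38, Ifit3 by -0.01 ± 0.32 and Ifit3b by 0.23 ± 0.33 on the log2 scale. Ifit3 and Ifit3b are close copies and their split is uncertain.

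Isg15 is a ubiquitin-like protein that is conjugated to other proteins, Usp18 removes it and dampens the receptor, and Trim25 is a ubiquitin ligase that acts on the RNA sensor RIG-I. Isg15 had 3.98, 6.54 and 18.2 FPKM in sham, 7.17, 9.72 and 17.3 FPKM in IR, and 7.24, 11.51 and 19.2 FPKM in IR-Ori. The highest library of each group, sham 5, IR 1 and IR-Ori 3, lay at nearly the same level, and the groups overlapped. Its log2 difference was 0.31 ± 0.36 in IR against sham (edgeR adjusted p = 0.647) and 0.19 ± 0.36 in IR-Ori against IR (edgeR adjusted p = 0.772). Trim25 had 9.86, 13.04 and 17.2 FPKM in sham, 11.4, 18.9 and 24.1 FPKM in IR, and 9.01, 13.7 and 14.8 FPKM in IR-Ori. IR 4, 5 and 6 exceeded every library of the other groups, and IR 1, 2 and 3 did not exceed the sham maximum. Its log2 difference was 0.42 ± 0.19 in IR against sham and -0.44 ± 0.19 in IR-Ori against IR, with edgeR adjusted p of 0.177 and 0.162. Parp14, an ADP-ribosyltransferase, had 1.93, 2.62 and 4.41 FPKM in sham, 2.08, 2.79 and 3.64 FPKM in IR, and 2.84, 3.995 and 5.56 FPKM in IR-Ori. The groups overlapped, and in IR-Ori against IR its log2 difference was 0.54 ± 0.23 (edgeR adjusted p = 0.162). Usp18, Parp9 and Dtx3l did not pass either, with log2 differences from -0.28 to -0.07 in IR against sham. Parp9 and Dtx3l, partners in a ubiquitin ligase complex, overlap by 682 bases on opposite strands, and no source used here says whether the counting used strand, so reads in the overlap cannot be assigned.

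The RNA sensors Ifih1 (MDA5) and Dhx58 (LGP2) differed little in IR against sham. Dhx58 had 1.42, 2.34 and 3.35 FPKM in sham, 1.40, 2.47 and 3.27 FPKM in IR, and 2.03, 3.28 and 4.75 FPKM in IR-Ori. The ranges of sham and IR were nearly the same, and IR-Ori 3 was the highest of all libraries. Its log2 difference was 0.05 ± 0.28 in IR against sham and 0.47 ± 0.28 in IR-Ori against sham (edgeR adjusted p = 0.933 and 0.514). For Ifih1 the log2 difference was 0.02 ± 0.18 in IR against sham, with a 95% interval from -0.36 to 0.40.

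The transcription factors Stat2 and Irf9 form the complex that drives these genes, Irf7 amplifies interferon production, and Irf1 and Irf8 act in interferon gamma responses and in myeloid cells. Irf8 had 0.55, 0.76 and 1.53 FPKM in sham, 1.17, 1.20 and 1.91 FPKM in IR, and 0.76, 1.01 and 1.27 FPKM in IR-Ori. Sham 2 and sham 6 lay within the IR range, and the groups overlapped. The log2 difference of Irf8 was 0.55 ± 0.26 in IR against sham (edgeR adjusted p = 0.203). Stat2 had 11.6, 32.3 and 78.1 FPKM in sham, 9.17, 31.99 and 52.4 FPKM in IR, and 27.4, 57.9 and 66.8 FPKM in IR-Ori. The spread inside each group exceeded the difference between groups, with log2 differences of -0.24 ± 0.42 in IR against sham and 0.78 ± 0.43 in IR-Ori against IR (edgeR adjusted p = 0.781 and 0.259). Irf1, Irf7 and Irf9 had log2 differences from -0.32 to -0.03 in IR against sham. Irf1, Irf7 and Irf9 each overlap another expressed gene in the table (Gm17334, Phrf1 and Rnf31).

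The guanylate-binding proteins are GTPases that attack pathogen vacuoles, and Tap1 moves peptides to MHC class I. Gbp2 had 0.22, 0.71 and 1.15 FPKM in sham, 0.78, 1.02 and 2.2 FPKM in IR, and 0.26, 0.455 and 1.11 FPKM in IR-Ori. IR 4 and IR 5 stood above all other libraries, and the groups overlapped. Its log2 difference was 0.77 ± 0.39 in IR against sham and -1.16 ± 0.40 in IR-Ori against IR (edgeR adjusted p = 0.243 and 0.0972). Gbp3, Gbp7 and Tap1 had log2 differences of -0.07, -0.61 and 0.17 in IR against sham. Tap1 overlaps Psmb9 on the opposite strand by 212 bases. The Gbp genes are a family of close copies, and their counts are uncertain to that extent.

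With oridonin, 0 of 35 members were called in IR-Ori against IR, where 0.596% of all genes tested were called higher and 3.01% lower. In that comparison 16.5% of the 526 genes called were higher, and limma on log2(FPKM + 1) gave 28.6% of 133 and DESeq2 32.2% of 1331. At an unadjusted p under 0.05 there were 6 members in edgeR, beside 24.2% of all genes. These were Mx1 and Parp14 with positive and Oasl1, Rsad2, Gbp2 and Trim25 with negative log2 differences. Limma on log2(FPKM + 1) called 0 members and DESeq2 called 1, Mx1. The median log2 difference of the 35 members was 0.25, with 24 of 35 above 0, and that of all genes was 0.00. The members' median was 0.09 without IR-Ori 3, 0.40 without IR 1, 0.11 with the mitochondrial share as a covariate and 0.12 among libraries at or above a 15% share. Without IR-Ori 3, edgeR called Oasl1 (log2 difference -1.43, adjusted p = 0.0386) and Rsad2 (log2 difference -1.76, adjusted p = 0.0445) lower than in IR. Both calls therefore hinge on whether that library is included. Among libraries at or above a 15% share, IR 1, 2 and 3 against 5 of IR-Ori, the log2 differences were -0.03 for Oasl1 and 0.18 for Rsad2, and with the share as a covariate they were -0.71 and -0.64, none of which passed in edgeR. The IR libraries serve in this comparison and in IR against sham, so an opposite sign in the 2 comparisons is not independent.

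IR-Ori against sham asks how far the treated livers stood from uninjured ones. In edgeR 0 of 35 members were called, and 0.0% of all genes tested. At an unadjusted p under 0.05 there were 1460 of 14595 genes and 3 members, Mx1, Mx2 and Parp14. DESeq2 called 32 genes higher and 4 lower, and limma on log2(FPKM + 1) called 0, with no member among them. The median log2 difference of the members was 0.40, with 28 of 35 above 0, beside -0.01 over all genes. Without IR-Ori 3 the members' median was 0.10, with the share as a covariate 0.25 and among libraries at or above a 15% share 0.18.

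IR-Ori 3 had the highest FPKM of its group for 22 of 35 members (62.9%), where it was the highest of its group for 10.4% of all genes tested. These included Ifit1, Ifit3, Isg15, Usp18, Mx1, Mx2, Oas1a, Oas3, Oasl1, Oasl2, Irf7, Ifih1, Dhx58 and Rsad2, and not Stat2, Irf1, Irf8, Irf9, Bst2 or Tap1. Measured from the sham mean in log2 CPM (counts scaled to the library total after trimmed-mean scaling), the median member in IR-Ori 3 was 0.95 higher and 32 of 35 members were above it. On that scale IR-Ori 3 was also the highest of its group for Irf9 (0.86, against 0.69 in IR-Ori 2). The same held narrowly for Tap1 (0.355, against 0.353 in IR-Ori 2). The other 5 IR-Ori libraries had medians from -0.02 to 0.35, and the next highest of the 18 libraries was IR 1 at 0.59. Usp18 was 7.54 FPKM in IR-Ori 3 against 2.02 to 2.98 in the other IR-Ori libraries, and Ifit3 was 15.4 FPKM in IR-Ori 3 against a group median of 6.20. The mitochondrial share of IR-Ori 3 was 29.1%, inside the range of its group (14.1% to 32.03%). The summed FPKM of 8 monocyte markers was 122.5 in IR-Ori 3, the highest of the IR-Ori group, and that of 9 neutrophil markers was 54.2, below the 64.6 of IR-Ori 2. Their part in the result was not tested. The library was singled out after its values were seen.

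Many members followed the mitochondrial share of a library within groups. In an edgeR fit with group and share, added after the data were seen, 13 of 35 members were higher in libraries with a larger share and 0 were lower, where 19.8% of 14579 nuclear genes tested were higher and 23.0% lower. Stat2 rose by 0.68 ± 0.07 log2 per 10 percentage points of share (edgeR adjusted p = 4.76e-06), Oas2 by 0.69 ± 0.09 (edgeR adjusted p = 1.42e-05) and Xaf1 by 0.53 ± 0.07 (edgeR adjusted p = 1.16e-05). The other 10 were Oas1g, Irf9, Isg15, Oasl2, Parp14, Irf1, Dhx58, Gbp3, Tap1 and Ifi35. In the same fit, markers of conventional dendritic cells (3 of 6), natural killer and T cells (2 of 4) and B cells (2 of 6) were higher with the share, and 0 lower. Markers of sinusoidal endothelium (3 of 8) and hepatocytes (2 of 7) were lower, and 0 higher. Of 8 Kupffer cell markers, 1 was higher and 2 were lower, and monocyte markers gave 0 higher and 1 lower of 7, neutrophil markers 1 higher and 0 lower of 8. Their part in the members' slopes was not tested. Rsad2 (-0.41 ± 0.18), Gbp2 (-0.35 ± 0.14) and Oasl1 (-0.27 ± 0.14) had negative slopes that did not pass. Oas3 had a slope of 0.27 ± 0.19 that did not pass either. The slopes of Oasl1 and Rsad2, which rose in IR, had the opposite sign to those of Stat2, Irf9 and Isg15, and that difference was not tested. In sham, Stat2 was 78.1 FPKM in sham 2, with a share of 42.8%, and 11.6 FPKM in sham 1, with a share of 10.3%. Without sham 2 and IR 1, the libraries farthest from the median share, edgeR called 8 members higher and 0 lower (13.3% and 17.4% of genes). Leaving out each library in turn gave 9 to 16 members higher and 0 to 3 lower, beside 14.9% to 19.8% and 18.6% to 22.8% of nuclear genes. Members were called lower without IR-Ori 3 (14 higher and 3 lower), IR 6 (16 and 2), IR 1 (9 and 2), IR-Ori 5 (12 and 2) or sham 1 (14 and 1). With 2 groups at a time, edgeR called 12, 9 and 7 members higher and 2, 1 and 0 lower for sham with IR, sham with IR-Ori and IR with IR-Ori. Of the nuclear genes tested in those fits, 18.2%, 19.9% and 7.79% were higher and 18.3%, 21.8% and 10.6% lower.

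**Figure D4:**
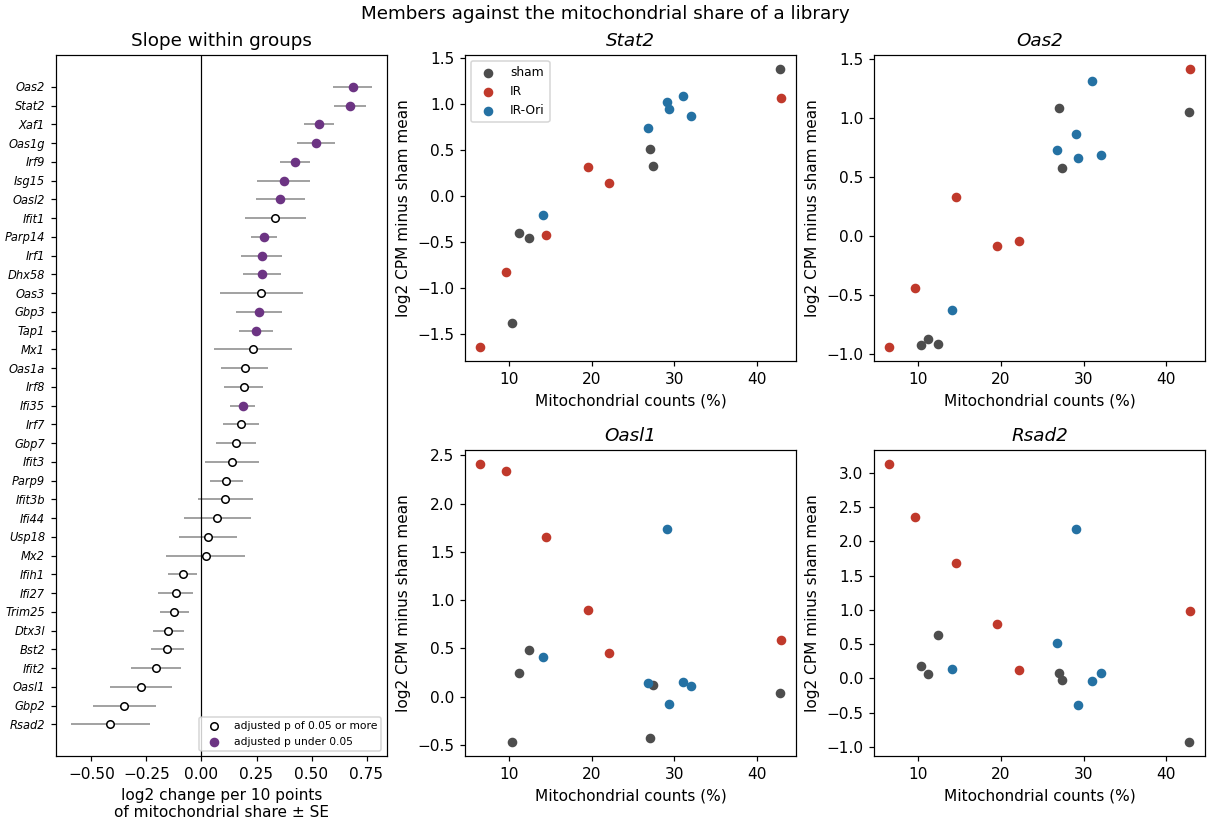
Left, log2 change per 10 percentage points of mitochondrial share with its standard error for each gene, from an edgeR fit that also holds the group. Right, log2 CPM minus the sham mean for 4 genes against the share, 1 point per library. Stat2 and Oas2 climb with the share in all 3 groups, and Oasl1 and Rsad2 are highest in the IR libraries with the smallest share.

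Of 10 interferon genes, 8 were at 0. Ifna1, Ifna2, Ifna4, Ifna5, Ifnb1, Ifne, Ifnl2 and Ifnl3 had 0 counts in all 18 libraries. Ifng, the ligand of the gamma receptor, reached at most 9 counts (0.38 FPKM), in sham 1. Ifnk, interferon kappa, stayed at 2 counts or fewer in every sham library and at 1 or fewer in every IR-Ori library, had 3 to 31 counts in the IR libraries, and did not pass the low-count filter. Its level was 0.23 to 0.50 FPKM in 5 IR libraries and 3.09 FPKM in IR 4, against at most 0.18 FPKM in sham. It overlaps Mob3b on the opposite strand by 1950 bases, so the source of those reads cannot be told apart. None of the 10 ligands was tested in edgeR, and DESeq2, which tested 1 of them, called it higher in IR against sham and lower in IR-Ori against IR.

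Of 10 receptors and kinases of the pathway, 2 rose in IR against sham and 3 fell in IR-Ori against IR, all of them parts of the gamma receptor complex. Jak1, which that receptor also uses, was called in neither comparison in edgeR. Over all genes tested 5.52% rose in the first comparison and 3.01% fell in the second. Limma on log2(FPKM + 1), which tested 9 of the 10, called 1 higher in the first and 0 in the second. Jak2 had 1.92, 2.87 and 3.27 FPKM in sham, 2.99, 5.37 and 8.64 FPKM in IR, and 2.5, 2.78 and 3.48 FPKM in IR-Ori. Most IR libraries exceeded both other groups, with an overlap at IR 1 only. Its log2 difference was 0.92 ± 0.22 in IR against sham and -0.87 ± 0.22 in IR-Ori against IR (edgeR adjusted p = 0.0142 and 0.0312). Ifngr1, the ligand-binding chain of the gamma receptor, differed by 0.66 ± 0.18 and -0.78 ± 0.19 (edgeR adjusted p = 0.0338 and 0.0258). Ifngr2, the signaling chain, differed by 0.54 ± 0.27 and -1.02 ± 0.27, of which the second passed (edgeR adjusted p = 0.226 and 0.0407). Among libraries at or above a 15% share edgeR called none of these 3 genes, with log2 differences of 0.32 and -0.35 for Jak2 and 0.35 and -0.42 for Ifngr1. The Jak2 call in IR-Ori against IR was lost without IR 4, 5 or 6 or without IR-Ori 1, 2, 3, 4 or 6 (edgeR adjusted p from 0.0604 to 0.101). The Ifngr1 call in IR against sham was lost without sham 1, 2, 3, 5 or 6, IR 4, 5 or 6, or IR-Ori 3 or 6 (edgeR adjusted p from 0.0501 to 0.103). In IR-Ori against IR the Ifngr1 call was lost without IR 4, 5 or 6 or IR-Ori 1, 2 or 6 (0.0596 to 0.0854). The Ifngr2 call was lost without sham 1, 5 or 6, IR 4, 5 or 6, or any IR-Ori library but IR-Ori 5 (0.0503 to 0.116). EdgeR called neither Jak2 nor Ifngr2 in IR-Ori against IR with the share as a covariate (adjusted p = 0.065 and 0.0662), nor with only the IR and IR-Ori libraries in the fit (0.0718 and 0.0666). Ifngr1 kept its 2 calls with the covariate and lost both with only the compared groups in the fit (0.0647 and 0.0632). Ifnar1, a chain of the type I receptor, was not called in IR against sham at -0.20 ± 0.18 (edgeR adjusted p = 0.558).

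Of 16 genes that sense nucleic acids or relay that signal, 14 were tested and 0 passed in any comparison in edgeR, with 1, 3 and 1 at an unadjusted p under 0.05 in IR against sham, IR-Ori against IR and IR-Ori against sham. DESeq2 called 1 of them higher in IR against sham and limma called 0. Irf3, which switches on interferon genes, differed by -0.25 ± 0.19 in IR against sham (edgeR adjusted p = 0.452). Of 8 negative regulators, 6 were tested and 2 rose in IR, where 5.52% of all genes tested rose. They were Ptpn2, a phosphatase that acts on Jak and Stat proteins (log2 0.91 ± 0.24, edgeR adjusted p = 0.0263), and Tnfaip3, the NF-kB brake A20 (log2 2.10 ± 0.48, edgeR adjusted p = 0.0124). Tnfaip3 is also in the NF-kB list below. DESeq2, which tested 7 of the 8, called 3 higher in IR against sham and, in IR-Ori against IR, 1 lower. Limma tested 5 and called 2 higher in IR against sham. The Ptpn2 call was lost without sham 1, 3, 4 or 5 or without IR 4 or 6 (edgeR adjusted p from 0.0551 to 0.0665), and at or above a 15% share neither gene passed, at 0.41 and 0.61. Socs3 differed by 1.44 ± 0.47 (edgeR adjusted p = 0.065), and Socs1, at 0.00 to 0.66 FPKM, was not tested.

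A further list of 40 interferon-induced genes outside the 35, of which 39 were tested, held 1 gene that passed in edgeR. Cxcl10 rose in IR against sham and fell in IR-Ori against IR. Over all genes tested 5.52% rose in the first comparison and 3.01% fell in the second. DESeq2 called 1 gene of the list higher in the first, and 2 higher and 1 lower in the second. Limma on log2(FPKM + 1), which tested 36, called 1 higher in the first and 1 lower in the second. Cxcl10 attracts activated T cells and answers to both interferons and NF-kB. It had 0.83, 1.15 and 1.33 FPKM in sham, 1.93, 3.94 and 8.31 FPKM in IR, and 0.57, 0.75 and 3.95 FPKM in IR-Ori. IR libraries all stood above sham, and IR-Ori 3 was the only IR-Ori library inside the IR range. Its log2 difference was 1.92 ± 0.46 in IR against sham and -1.70 ± 0.46 in IR-Ori against IR (edgeR adjusted p = 0.0164 and 0.0452). Without IR 4 the first difference was 1.66 (edgeR adjusted p = 0.0523). The second lost its call when any library was left out other than sham 2, IR 1, 2 or 3 or IR-Ori 3 (edgeR adjusted p from 0.0507 to 0.134), with the share as a covariate (0.098) and with only the IR and IR-Ori libraries in the fit (0.0972). At or above a 15% share neither passed, at 1.07 and -0.72. The median log2 difference of the 39 genes in IR against sham was -0.15, with 15 above 0. In edgeR 12 of the 39 had an unadjusted p under 0.05, beside 23.5% of all genes.

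Targets of NF-kB and chemokines moved in the same comparisons. Of 10 such genes, 8 rose in IR against sham and 4 fell in IR-Ori against IR, with medians of 1.30 and -1.13 on the log2 scale. Over all genes tested 5.52% rose and 3.01% fell, and the list was chosen with earlier results of these data known. Limma on log2(FPKM + 1), which tested 8 of the 10, called 6 and 3, and DESeq2 called 9 and 7. With 1 library left out, the edgeR adjusted p reached 0.129 for Rel in IR against sham and 0.120 for Relb in IR-Ori against IR. Ccl2, a monocyte attractant, differed by 3.85 ± 0.42 and -2.95 ± 0.40, and Cxcl2, a neutrophil attractant, by 4.98 ± 0.67 and -3.39 ± 0.60 (edgeR adjusted p from 0.000102 to 0.0057). All 8 neutrophil markers tested of 9 rose in IR, and 2 of them, S100a9 and Clec4d, were called lower in IR-Ori against IR in edgeR (4 in limma, 6 in DESeq2). The summed FPKM of the 9 was 3.94 to 26.8 in sham libraries, 69.4 to 315 in IR libraries and 7.68 to 64.6 with oridonin. Of 8 monocyte markers, 7 were tested in edgeR, 5 rose in IR against sham and 6 fell in IR-Ori against IR. For that fall limma called 2 of 4 tested and DESeq2 7 of 8. The sums were 58.9 to 127 FPKM in sham, 114 to 174 FPKM in IR and 81.4 to 122 FPKM in IR-Ori. The part of neutrophils and monocytes in the higher Oasl1, Oas3 and Rsad2 was not tested. Of 7 markers of plasmacytoid dendritic cells, the main interferon producers in blood, 2 were tested. Siglech, the defining marker, was at 0.02 to 0.72 FPKM over all libraries and Ccr9 at 0.00 to 0.15 FPKM. Ly6d, also expressed by other cells, rose by 2.39 ± 0.56 on the log2 scale in IR (edgeR adjusted p = 0.0134). EdgeR called it lower in IR-Ori against IR. The other marker tested had a negative log2 difference in IR against sham and was called in neither comparison, so Ly6d does not stand for the list. Of the other cell type lists, edgeR called 0 genes in any comparison for conventional dendritic cells (6 tested of 9), natural killer and T cells (4 of 13), B cells (6 of 7), Kupffer cells (8 of 8) and hepatocytes (7 of 8). At an unadjusted p under 0.05 in IR against sham there were 1, 0, 2, 0 and 0 of these genes, and DESeq2 called 0. Of 8 markers of sinusoidal endothelium, 3 rose in IR: Lyve1 (log2 2.46), Cdh5 (1.52) and Pecam1 (0.97), with edgeR adjusted p from 0.00534 to 0.0198. Over all genes tested 5.52% rose. The median log2 difference of the 8 markers was 0.18, with 5 above 0 and the others below, so the named genes do not stand for the list. The summed FPKM of hepatocyte markers, which checks the tissue label, lay between 13716 and 46123 in sham libraries. It lay between 23443 and 32098 in IR libraries and between 26092 and 39728 with oridonin.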

How the data were processed

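Liver RNA of 18 libraries was sequenced, 6 per group. The submitters' processing notes name cutadapt 1.9.1, HISAT2 2.2.1, the build GRCm39 and DESeq2. No label names the counting tool, its use of strand or the annotation. The authors deposited whole-number counts per gene and FPKM. Count, exonic length and library total returned 100% of the deposited FPKM within 0.0051.

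Tests on the counts used edgeR 4.0.16 under R 4.3.3 (quasi-likelihood, trimmed-mean scaling, filter with minimum count 10 and minimum total 15, which kept 14595 genes). One model held all 18 libraries and the group, with 15 residual degrees of freedom, and 3 two-sided contrasts were adjusted by Benjamini-Hochberg over all genes tested. The common biological coefficient of variation was 0.398. Fits were first tested on simulated data. Alternatives used DESeq2 1.42.0, limma 3.58.1 on log2(FPKM + 1) for genes that reached 1 FPKM in 6 or more libraries, other scalings and filters, a replicate block, the mitochondrial share and left-out libraries. No 2 libraries were identical.

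The members and gene lists were chosen with earlier results of these data known. Named genes are members called in any comparison, the member of smallest p in each role, up to 5 called genes of each pathway list, and Ifnar1, Ifnb1, Ifng, Irf3, Socs1, Socs3 and Cxcl10. One further gene that the rule names is not reported here. Isg15, Stat2, Mx1, Jak1 and the genes of the promoter and share paragraphs were named after their values were seen. Cell type lists for dendritic, natural killer, T, B, Kupffer, endothelial and hepatic cells were summed as well.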

Additional observations from a re-analysis of the deposited data

Results flagged for a closer look

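In each group of 6 libraries, a member was marked where its highest or lowest FPKM lay apart from the other 5 by a gap, as a share of the group's range, above Dixon's 95% critical value. This marked 16 of 105 gene and group combinations. The critical value marks about 1 in 20 where values are normal and independent. FPKM was used untransformed and the genes share libraries, so the 16 cannot be weighed against that rate.

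Of the 16, 7 were high values in IR-Ori 3: Oasl1 at 5.96 FPKM, Mx1 at 4.41, Mx2 at 16.57, Usp18 at 7.54, Rsad2 at 3.93, Ifi44 at 0.89 and Gbp2 at 1.11. The other IR-Ori libraries held 1.95 to 2.52, 0.40 to 1.37, 4.05 to 8.49, 2.02 to 2.98, 0.75 to 1.26, 0.32 to 0.44 and 0.26 to 0.56 FPKM for these genes. The genes share a library, so the 7 marks are not independent.

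In sham, the marks were Oas1g at 2.04 FPKM and Bst2 at 30.21 FPKM in sham 2, the library with the largest mitochondrial share of its group, Usp18 at 4.62 FPKM in sham 1 and Gbp7 at 3.3 FPKM in sham 5. The Bst2 value was low, against 77.3 to 94.5 FPKM in the other sham libraries.

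In IR, they were Mx2 at 21.31 FPKM (others 3.22 to 7.28) and a low Irf1 at 4.33 FPKM in IR 6, Isg15 at 17.31 FPKM in IR 1 and Tap1 at 3.57 FPKM in IR 5. In IR-Ori, Trim25 was low in IR-Ori 6 at 9.01 FPKM.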

How the results depend on the processing

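For the 35 members and 13 named pathway genes under 30 alternatives, 4011 values of a single gene kept their side of the threshold, 162 lost and 15 gained a call. No called direction was reversed. Values called in neither fit could change sign and still count among the 4011. One was Rsad2 in IR-Ori against IR, at -1.16 in the main fit and 0.18 at or above a 15% share. Members called higher in IR against sham numbered 1 instead of 3 with limma on log2(FPKM + 1), with a pseudocount of 0.1, with limma without a filter and with the replicate block, and 0 among libraries at or above 15% mitochondrial share. In IR-Ori against IR, DESeq2 called 1 member higher instead of 0.

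All genes called in IR against sham were 806 higher and 345 lower. They were 390 and 204 with limma, 394 and 208 with the pseudocount of 0.1, 272 and 95 without the FPKM filter, 453 and 191 with the replicate block, and 14 and 0 at or above 15% share. The lower count was 683 with DESeq2, 718 with the share as covariate and 582 under 15% share. In IR-Ori against IR, 87 higher and 439 lower became 428 and 903 with DESeq2, 38 and 95 with limma, 28 and 76 with the pseudocount of 0.1, 7 and 61 without the FPKM filter, 28 and 135 with the replicate block, 24 and 148 with only the 2 groups in the fit, and 0 and 15 at or above 15% share. The lower count was 231 with the covariate. In IR-Ori against sham, DESeq2 gave 32 and 4 instead of 0. The cause of these shifts was not tested.

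Leaving out each library gave 1 to 3 members higher in IR against sham (442 to 920 genes higher, 134 to 640 lower), 0 to 1 higher and 0 to 2 lower in IR-Ori against IR (11 to 319 genes higher, 140 to 737 lower), and 0 throughout in IR-Ori against sham. Under 15% share IR-Ori has 1 library, so its comparisons were not run there. In the labels, same-numbered libraries share only a number. The correlation of their deviations ran from -0.44 to 0.34 in the 12 pairs with sham. It ran from 0.01 to 0.42 in the 6 pairs of IR with IR-Ori, of which 4 were over 0.1. Of these 6, 5 correlated best with their own number, a hint from the data and not from the labels. With the replicate block, edgeR did not call Oas3 (adjusted p = 0.0771) or Rsad2 (0.0529) in IR against sham, or Jak2 (0.069), Ifngr2 (0.0878) or Cxcl10 (0.0516) in IR-Ori against IR.

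Counts of Oas3, Gbp2, Ifi44 and Ifit3b were low, which limits their precision.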
